A study of Mus musculus with 9 samples.

Results

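The genes described here encode the inhibitors of cyclin-dependent kinases (CDKs): the Cip/Kip family, Cdkn1a, Cdkn1b and Cdkn1c (the proteins p21, p27 and p57), and the INK4 family, Cdkn2a, Cdkn2b, Cdkn2c and Cdkn2d. They were found by gene symbol in the platform annotation, and every probe set annotated to 1 symbol was used. That gave 7 probe sets for 6 of the 7 genes, among 21640 probe sets with 1 symbol, which cover 19937 genes, and 34760 probe sets in all. Cdkn1a has no probe set of its own: its only one is also annotated to 4930567H12Rik, so no value is given for Cdkn1a. Cdkn1b had 2 probe sets and the other 5 genes 1 each.

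RNA was taken from MEFs, fibroblasts cultured from mouse embryos, that differ in Cdkn1b. Wild-type cells (WT), p27CK cells (CK) and p27KO cells (KO) were each measured on 3 arrays. All cells, WT included, were cultured in 10% fetal bovine serum and starved of serum for 72 h, a treatment that drives fibroblasts into quiescence. The name p27CK is used in published work for a p27 protein that no longer binds cyclins and CDKs; the labels give the name only. The extraction protocol of all 9 samples speaks of wt and delta51 mice, and does not say which titles delta51 belongs to. Neither the age of the embryos nor the number of embryos or cultures behind the 3 arrays of a genotype is stated in the labels. The spread that the p-values rest on is that between 3 arrays and may be only technical, and genotype cannot be told apart from the culture that carried it.

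CDK inhibitors hold back the kinases that drive cells from G1 into S phase. Cip/Kip proteins bind cyclin and kinase together and act on several cyclin-CDK pairs, with the CDK2 complexes as their classic targets, whereas INK4 proteins are built of ankyrin repeats and bind CDK4 and CDK6 alone, keeping them from the D-type cyclins. In fibroblasts p27 accumulates when serum is withdrawn, p16 and Arf from the Cdkn2a locus accumulate as cultures age, and p15 from Cdkn2b responds to TGF-beta.

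Values are log2 levels from the authors' RMA processing, so a difference of 1 is a doubling. Array medians lay between 7.29 and 7.40, and Pearson correlations across all probe sets were 0.995 to 0.998 within a genotype and 0.964 to 0.975 between genotypes. The fibroblast markers read high, with a mean level over the 11 listed genes of 12.67 to 12.78 on WT arrays, 12.45 to 12.57 on CK arrays and 11.82 to 11.86 on KO arrays. Of the 11, 7 were called lower in KO than in WT and 1 higher, where 16.2% and 17.2% of all probe sets were. Among those lower, Thy1, a surface marker of fibroblasts, read 7.14 in KO against 11.73 in WT and 11.69 in CK. Cartilage markers were higher in KO: 8 of 9 were called higher than in WT and 1 lower, and their mean level was 10.12 to 10.49 on KO arrays, 8.46 to 8.68 on WT arrays and 7.51 to 7.56 on CK arrays. In CK 4 of the 9 were called lower than in WT and none higher, where 21.3% and 20.9% of all probe sets were. Cnmd read 13.32, 13.34 and 13.33 on WT arrays and 7.13, 7.28 and 7.47 on CK arrays. The mark used for dim signal, since the table has no detection calls, is 7.25, the 40th percentile of probe set means. The macrophage, epithelial, endothelial, skeletal muscle and neural lists had mean levels between 6.32 and 7.53 on the single arrays. In WT 6 of 7 macrophage genes, 4 of 6 epithelial, 4 of 5 endothelial, 4 of 6 skeletal muscle and 4 of 6 neural genes were below the dim mark, among them Ptprc (6.15), Epcam (5.96) and Pecam1 (6.74). Single genes of these lists did move between genotypes: Cd68 had means of 10.64 (WT), 8.59 (CK) and 7.99 (KO), Map2 10.57, 9.35 and 7.63, Tek 8.77, 6.51 and 6.80, and Lyz2 6.90, 7.59 and 8.83. Nes was higher in CK, with means of 6.04 (WT) and 9.50 (CK). In bulk RNA, fewer cells of a type and less RNA per cell cannot be told apart. The part of these marker differences in the results for the inhibitors was not tested.

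The inhibitor genes did not move as a block. In KO cells the mRNA of Cdkn1b and that of its relative Cdkn1c were lower than in WT, while Cdkn2a and Cdkn2b were higher. In CK cells Cdkn2a and Cdkn2b were higher by far more, Cdkn1c was also higher, and Cdkn1b and Cdkn2c were slightly lower. Cdkn2d was called in no comparison.

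**Figure D1:**
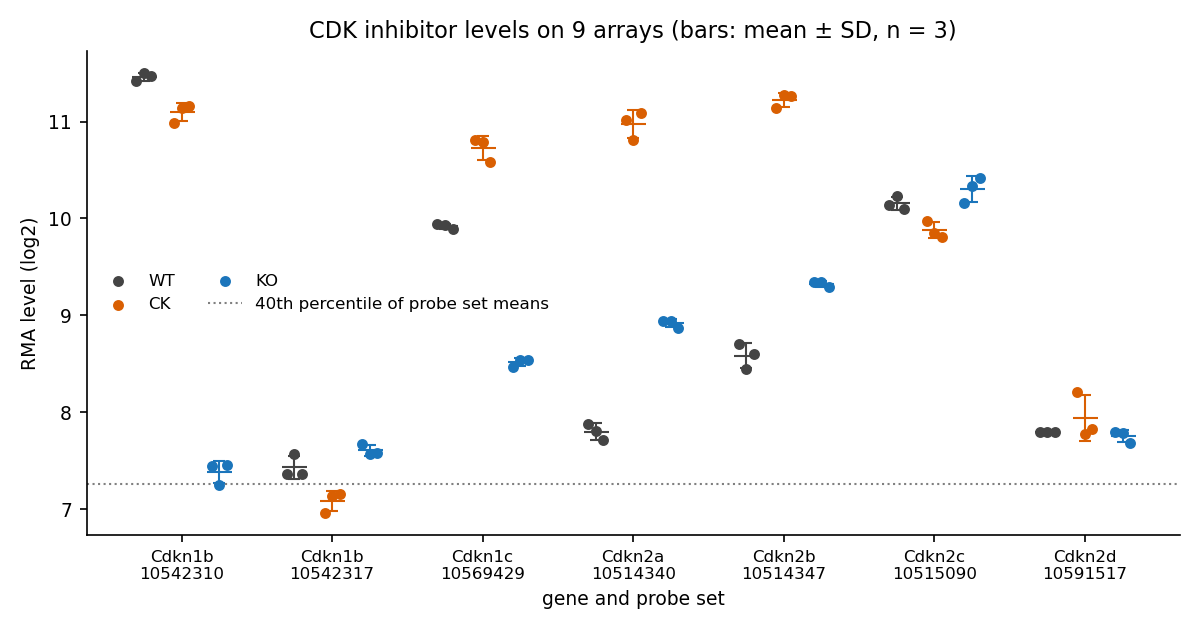
Log2 level (vertical axis) of the 7 probe sets of the CDK inhibitor genes (horizontal axis) on each of the 9 arrays; points are arrays, horizontal and vertical bars the mean and SD of 3 arrays, and the dotted line is 7.25, the 40th percentile of probe set means. Cdkn2a and Cdkn2b stand highest on the CK arrays, Cdkn1c has the order CK, WT, KO, and the brighter Cdkn1b probe set drops to the dotted line on the KO arrays.

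Differences were tested with limma over all 21640 probe sets, and an adjusted p (Benjamini-Hochberg) under 0.05 made a call. Of the 7 inhibitor probe sets, 4 were called between KO and WT, where 33.4% of all probe sets were. The same 4 had arrays that did not overlap between the groups, against 43.4% of all probe sets. The directions were mixed, with 2 higher in KO (17.2% of all probe sets) and 2 lower (16.2%). Between CK and WT 6 of 7 were called, against 42.2% of all, with 3 higher in CK (20.9%) and 3 lower (21.3%), and 6 did not overlap (48.6% of all). Between CK and KO 6 of 7 were called, against 41% of all, with 4 higher in CK (19.8%) and 2 lower (21.2%), and 6 did not overlap (48.5% of all). So many probe sets were called that a call alone sets none of these genes apart; the sizes differ more. The median size of difference over the 7 was 0.74 between KO and WT, 0.37 between CK and WT and 1.90 between CK and KO, where it was 0.10, 0.13 and 0.12 over all probe sets. The 7 include 2 probe sets of Cdkn1b, the gene altered by design. The genes were also chosen with earlier results of these data known, so these counts and medians are description and no test. All 7 had mean levels above the dim mark, and the 12984 probe sets at or above it are the nearer comparison: of these, 49.1%, 61.1% and 59.8% were called in the same 3 comparisons, with median sizes of 0.20, 0.28 and 0.27. All 3 comparisons share arrays with each other, so their values are not independent.

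**Figure D2:**
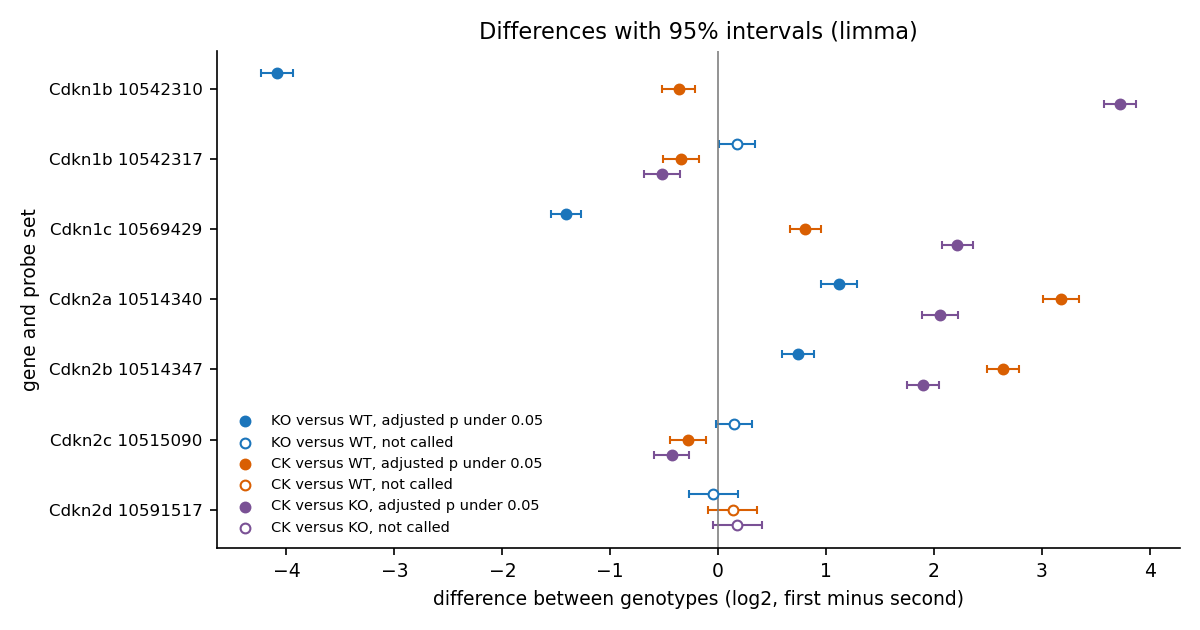
Difference of mean log2 level (horizontal axis, first genotype minus second) for each inhibitor probe set (vertical axis) in the 3 comparisons; bars are 95% intervals from limma, filled points have an adjusted p under 0.05 and open points do not. Cdkn2a and Cdkn2b lie right of 0 in every comparison, and Cdkn1c lies left of 0 for KO versus WT and right of 0 in the other comparisons.

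Cdkn1b, on chromosome 6, encodes p27, which binds cyclin E-CDK2 and cyclin A-CDK2 and is the gene altered in this study. Its brighter probe set, 10542310, read 11.42, 11.50 and 11.47 on the WT arrays, 10.99, 11.14 and 11.16 on the CK arrays and 7.44, 7.25 and 7.45 on the KO arrays. The groups did not overlap, and the KO arrays lay at the dim mark. The log2 difference was -4.09 (SE 0.07, limma adjusted p = 6.63e-10) for KO minus WT, which ranks 48 by size among the 21640, and -0.37 (SE 0.07, adjusted p = 0.00166) for CK minus WT. Because the KO level is not shown to be above background, the KO difference is one of measured values only. The other probe set, 10542317, stayed near the dim mark in all genotypes and did not follow it. It read 7.36, 7.57 and 7.36 on WT arrays, 6.96, 7.13 and 7.16 on CK arrays and 7.67, 7.57 and 7.58 on KO arrays. KO and WT arrays overlapped there, with a difference of 0.18 (95% interval 0.0073 to 0.35, adjusted p = 0.109), whereas CK lay below both, by 0.34 relative to WT (log2 difference -0.34, adjusted p = 0.00452) and by 0.52 relative to KO (log2 difference -0.52, adjusted p = 0.000384). Its values lie so near the dim mark that they show neither a loss in KO nor its absence, and its CK difference adds nothing to that of the brighter probe set. Which part of the gene each one covers is not given in the sources used here.

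Cdkn1c, on chromosome 7, encodes p57, the third Cip/Kip protein and the product of an imprinted gene expressed from the maternal copy. It read 9.94, 9.93 and 9.89 on the WT arrays, 10.81, 10.79 and 10.58 on the CK arrays and 8.47, 8.54 and 8.54 on the KO arrays. The 3 genotypes were fully separated, in the order CK, WT, KO. KO was 2.65-fold below WT (log2 difference -1.41, SE 0.06, adjusted p = 2.63e-07), and CK was 1.75-fold above WT (log2 difference 0.81, SE 0.06, adjusted p = 6.93e-06). The mutants moved to opposite sides of WT, and the difference between them, 2.22 (SE 0.06, adjusted p = 1.23e-08), was larger than either; it ranks 395 by size among the 21640 differences between CK and KO.

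Cdkn2a, on chromosome 4, gives rise to the INK4 protein p16 and, from another first exon and another reading frame, to Arf, which stabilises p53 by holding back Mdm2. The annotation of its probe set lists transcripts of both, so p16 and Arf mRNA are not told apart in these values. It read 7.88, 7.81 and 7.71 on the WT arrays, 11.02, 10.81 and 11.09 on the CK arrays and 8.94, 8.94 and 8.87 on the KO arrays. No arrays of different genotypes overlapped, and WT was lowest. The WT arrays lay not far above the dim mark of 7.25, so fold values over WT are those of measured values only. CK exceeded WT 9.03-fold (log2 difference 3.18, SE 0.07, adjusted p = 5.84e-09), which ranks 110 by size among 21640, and KO exceeded WT 2.17-fold (log2 difference 1.12, SE 0.07, adjusted p = 3.5e-06). CK was also 4.15-fold above KO (log2 difference 2.05, SE 0.07, adjusted p = 4.96e-08).

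Cdkn2b, the next gene on chromosome 4, encodes p15, an INK4 inhibitor of CDK4 and CDK6. Its levels were 8.70, 8.45 and 8.60 on the WT arrays, 11.14, 11.27 and 11.26 on the CK arrays and 9.34, 9.34 and 9.29 on the KO arrays. As for Cdkn2a, the order was CK, KO, WT without overlap. CK was 6.22-fold above WT (log2 difference 2.64, SE 0.06, adjusted p = 7.6e-09; rank 209 by size) and KO was 1.67-fold above WT (log2 difference 0.74, SE 0.06, adjusted p = 2.35e-05). The difference between CK and KO was 1.90 (SE 0.06, adjusted p = 3.68e-08).

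The promoters of this pair are shown because both genes rose in both mutants. Each sequence is the 250 bases before a RefSeq transcription start in GRCm38.p6, on the minus strand of chromosome 4, written 5′ to 3′ with capitals marking the letters GGGCGG (an Sp1 box) on either strand. Cdkn2a has 2 starts, and the one farther upstream, at the higher coordinate, is that of Arf and the other that of p16.
Cdkn2a, Arf start, chr4:89294620-89294869: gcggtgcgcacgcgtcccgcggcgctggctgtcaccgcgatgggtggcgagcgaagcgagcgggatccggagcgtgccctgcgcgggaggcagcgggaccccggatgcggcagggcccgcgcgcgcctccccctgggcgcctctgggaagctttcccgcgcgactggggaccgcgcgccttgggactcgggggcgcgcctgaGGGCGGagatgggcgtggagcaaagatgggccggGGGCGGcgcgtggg
Cdkn2a, p16 start, chr4:89282193-89282442: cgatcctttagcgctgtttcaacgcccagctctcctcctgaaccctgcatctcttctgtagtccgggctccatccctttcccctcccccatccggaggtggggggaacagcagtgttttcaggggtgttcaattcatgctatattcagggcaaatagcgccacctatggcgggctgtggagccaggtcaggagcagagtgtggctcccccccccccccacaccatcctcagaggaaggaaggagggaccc
Cdkn2b, chr4:89311033-89311282: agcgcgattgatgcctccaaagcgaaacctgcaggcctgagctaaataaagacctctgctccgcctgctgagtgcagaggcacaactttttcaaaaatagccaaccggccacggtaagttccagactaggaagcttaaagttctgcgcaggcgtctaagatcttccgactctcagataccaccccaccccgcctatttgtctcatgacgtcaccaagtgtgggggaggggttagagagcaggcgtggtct
The Arf window held GGGCGG 2 times, and the p16 and Cdkn2b windows did not hold it; 32.7% of 32851 promoter windows of this length had at least 1. None of these 3 windows held TTTCGCGC or TTTGGCGC (E2F, in 0.256% and 0.417% of all windows), CACGTG (E-box, 6.02%) or TGACTCA (AP-1, 4.46%), each searched on both strands; no match overlapped another motif. The Arf window had 40 CG dinucleotides, more than 98.7% of windows had, whereas the p16 window had 7 and the Cdkn2b window 12, where the median window had 6. These counts describe letters only.

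The genes beside this pair were read from the same fit. Of 9 listed neighbours on chromosome 4, 3 were higher and 1 lower in KO than in WT, and 3 were higher and 2 lower in CK than in WT. Among all probe sets, 17.2% were called higher and 16.2% lower in KO, and 20.9% and 21.3% in CK. Mtap, a methionine salvage enzyme gene that lies directly before Cdkn2a in RefSeq, read 10.04, 10.09 and 9.99 on WT arrays, 11.28, 11.26 and 11.14 on CK arrays and 10.74, 10.71 and 10.74 on KO arrays. It thus had the same order of genotypes as Cdkn2a and Cdkn2b without overlap, with differences of 1.19 for CK minus WT (adjusted p = 1.02e-07) and 0.70 for KO minus WT (adjusted p = 3.85e-06). Dmrta1, directly after Cdkn2b, was dim, with mean levels of 6.53 (WT), 6.88 (CK) and 6.46 (KO). It was 0.35 higher in CK than in WT (adjusted p = 0.00778), and its KO minus WT difference was -0.07 (adjusted p = 0.608). Mllt3, the farthest listed gene on the Mtap side, was lower in both mutants, by -0.83 in KO (adjusted p = 2.9e-05) and -1.14 in CK (adjusted p = 2.66e-06). Whether position on the chromosome bears on any of these levels was not tested.

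Around Cdkn1c, an imprinted stretch of chromosome 7, 2 of 10 listed neighbours were higher and 2 lower in KO than in WT, and 3 were higher and 2 lower in CK. The shares of all probe sets were again 17.2% higher and 16.2% lower in KO, and 20.9% and 21.3% in CK. Slc22a18, a transporter gene directly after Cdkn1c in RefSeq, read 9.77 in WT and 9.74 in KO but 7.84 in CK, a log2 difference of -1.93 from WT (adjusted p = 5.18e-07). Tnfrsf23, a decoy receptor gene farther along, had means of 9.72 (WT), 11.65 (CK) and 9.31 (KO), so it rose by 1.93 in CK (adjusted p = 1.65e-07) and fell by 0.42 in KO (adjusted p = 0.00341), with the order of genotypes that Cdkn1c had. Cars, the cysteinyl-tRNA synthetase gene, rose by 1.45 in CK (adjusted p = 9.47e-08) and by 0.22 in KO (adjusted p = 0.0153). For Slc22a18 KO minus WT was -0.02 (adjusted p = 0.899). Whether position or imprinting bears on any of these levels was not tested.

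**Figure D3:**
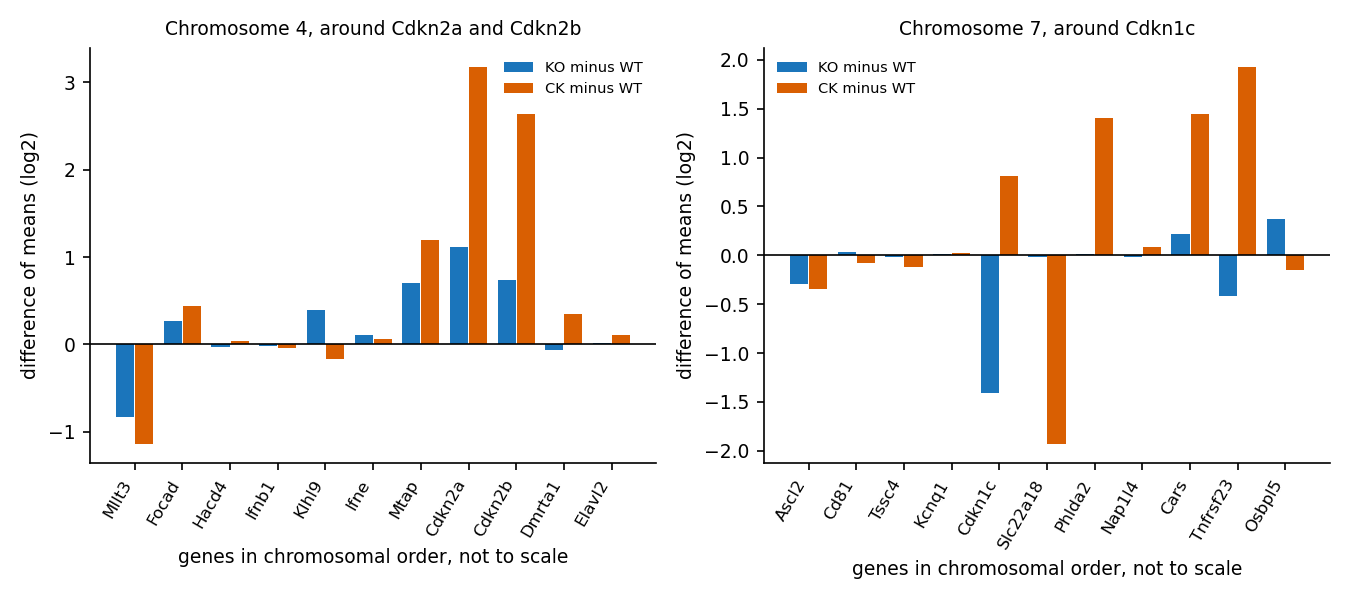
Difference of mean log2 level from WT (vertical axis) for KO (blue) and CK (orange) of the inhibitor genes and the listed neighbours with a probe set, in chromosomal order but not to scale (horizontal axis). Mtap, Cdkn2a and Cdkn2b have bars above 0 in both mutants and larger in CK; around Cdkn1c, Slc22a18 and Tnfrsf23 have bars on opposite sides of 0 in CK.

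Cdkn2c, also on chromosome 4 but apart from that pair, encodes p18. It read 10.14, 10.23 and 10.10 on the WT arrays, 9.97, 9.85 and 9.81 on the CK arrays and 10.16, 10.33 and 10.42 on the KO arrays. CK lay below the other genotypes without overlap, by a small amount (log2 difference from WT -0.28, SE 0.07, adjusted p = 0.0115; from KO -0.43, adjusted p = 0.00107). KO and WT overlapped, with a difference of 0.15 (95% interval -0.02 to 0.31, adjusted p = 0.166). Its CK minus WT difference was of opposite sign to those of Cdkn2a and Cdkn2b.

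Cdkn2d, on chromosome 9, encodes the INK4 protein p19. It read 7.80 on all 3 WT arrays to 2 decimals, 8.21, 7.77 and 7.83 on the CK arrays and 7.80, 7.78 and 7.68 on the KO arrays. All genotypes overlapped, and CK replicate 1 stood above the other arrays. The levels lay not far above the dim mark of 7.25, so the lack of a call does not show an unchanged gene. The difference was -0.04 for KO minus WT (95% interval -0.27 to 0.18, adjusted p = 0.812), 0.13 for CK minus WT (-0.09 to 0.36, adjusted p = 0.353) and 0.18 for CK minus KO (-0.05 to 0.41, adjusted p = 0.21). With WT values so close, the SD in WT was 0.0023. In 4 of the 21 pairs of an inhibitor probe set and a genotype 2 arrays had exactly the same value, which 9.15% of probe sets had in WT, 9.22% in CK and 9.95% in KO.

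Taking single values alone, each difference without overlap had p = 0.1 in an exact permutation test (two-sided, 3 arrays per genotype), the smallest p this design allows.

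Patterns across the 9 arrays were compared by the root mean square difference of log2 values after each probe set was centred on its own mean, over 18706 other genes. For Cdkn2a the nearest were Emx2 (0.12), Kif21b (0.15) and Lrrc8b (0.18), and for Cdkn2b Jup (0.11), Elmo1 (0.12) and Kif21b (0.15). Kif21b, a kinesin gene, stood near both, with means of 7.10 (WT), 9.94 (CK) and 8.02 (KO). Cdkn2b itself was at 0.25 from Cdkn2a and ranked 12 among the genes nearest to it. Nearest to Cdkn1c were Slc2a6 (0.09), Basp1 (0.09) and Errfi1 (0.10), with the same order CK, WT, KO. Nearest to the brighter Cdkn1b probe set were Pir (0.21), Mfap4 (0.27) and Ndrg2 (0.31), all low in KO; Cdkn1c stood at 1.10 from it, rank 195. Some of the matched levels were below the dim mark of 7.25 and may be background. These were the WT means of Emx2 (7.09), Kif21b (7.10) and Elmo1 (6.34), and the KO means of Elmo1 (7.07) and Pir (6.91). Since the 9 arrays form 3 genotypes, such likeness describes 3 group levels and carries no test.

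**Figure D4:**
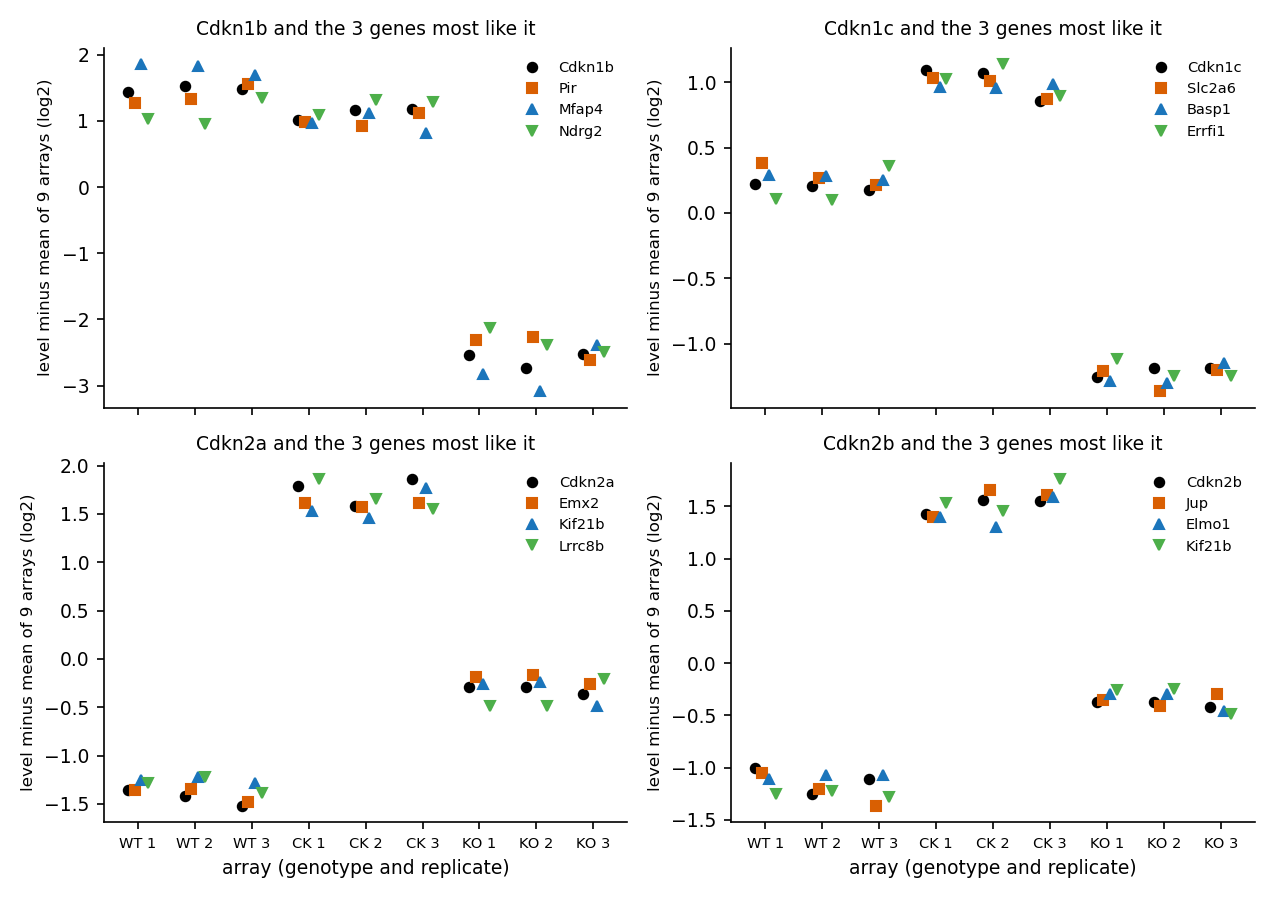
Log2 level minus the gene's mean over the 9 arrays (vertical axis) on each array (horizontal axis) for 4 inhibitor genes (black circles) and the 3 genes nearest to each (coloured marks). On a single array the 4 genes spread over at most 0.28 in the Cdkn1c panel, 0.33 for Cdkn2a, 0.36 for Cdkn2b and 0.88 for Cdkn1b, where the match is loosest; Kif21b is in the Cdkn2a and Cdkn2b panels.

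The kinases that these proteins inhibit differed most at Cdk6. Of 5 kinase genes 3 fell and none rose in KO compared with WT, and 1 rose and 1 fell in CK. Over all probe sets 16.2% fell and 17.2% rose in KO, and 20.9% rose and 21.3% fell in CK. Cdk6, the INK4 target kinase, read 10.58 on every WT array, 11.24, 11.19 and 11.10 on the CK arrays and 7.99, 8.04 and 7.97 on the KO arrays. It fell by 2.58 in KO (adjusted p = 7.17e-10) and rose by 0.60 in CK (adjusted p = 4.3e-06), so its genotypes had the same order as those of Cdkn1c. Cdk4, the other INK4 target, had means of 13.31 (WT), 13.34 (CK) and 13.33 (KO). Cdk2, the main Cip/Kip target, fell by 0.38 in KO (adjusted p = 0.0019) and by 0.41 in CK (adjusted p = 0.000842).

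Of 7 G1 and S cyclin genes, 4 fell and 1 rose in KO, and 2 rose and 2 fell in CK. The D-type cyclin Ccnd2 fell by 1.02 in KO (adjusted p = 1.46e-06), and its difference in CK was 0.11 (adjusted p = 0.167). Ccne1, a cyclin E partner of CDK2, had means of 9.32 (WT), 10.05 (CK) and 8.59 (KO). Ccne2, the other cyclin E gene, went the other way in KO, with means of 7.33 (WT), 8.57 (CK) and 8.31 (KO). It rose by 0.99 in KO (adjusted p = 0.00416) and by 1.25 in CK (adjusted p = 0.000746), from a WT level close to the dim mark. Against KO, 4 of the 7 were higher in CK and none was lower. Of 3 pocket protein genes, whose products are the substrates of these kinases, 1 rose and none fell in KO, and 1 rose and 1 fell in CK. Rbl2 rose by 0.50 in KO (adjusted p = 0.000196) and fell by 0.80 in CK (adjusted p = 6.41e-06). Rbl1 went the other way in CK and rose by 0.54 (adjusted p = 0.000133), and Rb1 was called in no comparison. Of 9 proliferation markers 2 rose and 3 fell in KO, 2 rose and none fell in CK, and 6 were higher and none lower in CK than in KO. Over all probe sets 19.8% were called higher and 21.2% lower in CK than in KO. The shares were 17.2% and 16.2% in KO against WT, and 20.9% and 21.3% in CK against WT. The proliferation markers were not dim in these serum-starved cells. Their mean level was 9.77 to 10.0 on WT arrays, 9.98 to 10.49 on CK arrays and 9.24 to 9.85 on KO arrays. Only 1 of the 9 had a genotype mean below the dim mark of 7.25, in KO. How many cells were still cycling was not tested.

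Known regulators of these inhibitors went both ways. Of 28 Polycomb and other regulators of the INK4 locus, 7 rose and 11 fell in KO, and 10 rose and 11 fell in CK. Over all probe sets, 17.2% were called higher and 16.2% lower in KO, and 20.9% and 21.3% in CK. The counts of these lists are to be read beside those shares, and were not tested against them. Tbx2, a T-box repressor of the locus, read 11.15, 10.99 and 11.15 on WT arrays, 7.95, 7.91 and 7.72 on CK arrays and 7.78, 7.93 and 7.79 on KO arrays. It was thus lower in both mutants, by a log2 difference of -3.26 in KO (adjusted p = 4.99e-09) and -3.24 in CK (adjusted p = 5.84e-09), and the arrays of CK and KO overlapped. Tbx3, the other T-box gene listed, did not follow it: it fell by 1.75 in KO (adjusted p = 3.58e-08) and was higher in CK than in WT by 0.45 (adjusted p = 0.000156). Id1, an inhibitor of helix-loop-helix factors, fell by 2.32 in CK (adjusted p = 1.43e-08) and by 0.76 in KO (adjusted p = 1.95e-05). Ets1, an activator of p16 transcription, rose by 1.47 in CK (adjusted p = 3.37e-08) and by 0.59 in KO (adjusted p = 1.33e-05). Hmga2, a chromatin protein that lowers expression from the locus, fell by 3.04 in KO (adjusted p = 2.47e-08) and by 0.26 in CK (adjusted p = 0.048). Of 15 genes of p27 turnover and transcription, 3 rose and 5 fell in KO and 5 rose and 5 fell in CK. The kinase gene Pim1 rose by 2.10 in CK (adjusted p = 6.52e-08) and by 0.63 in KO (adjusted p = 0.000193). Of 18 genes of the p53 pathway, through which Arf and p21 are linked, 5 rose and 4 fell in KO, and 5 rose and 6 fell in CK. In CK the p53 target Ccng1 fell by 0.69 (adjusted p = 3.13e-06), while Sesn2 rose by 1.47 (adjusted p = 1.09e-06). Whether any of these differences bears on the inhibitor levels was not tested.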

How the data were processed

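RNA of 9 samples was measured on Affymetrix arrays as biotin-labelled cRNA. The authors deposited log2 values; per the submitters' processing notes they used RMA and affy. Versions and filters are not given in the sources used here. RMA corrects background, quantile-normalizes arrays and summarises probes by median polish, so a change in total RNA per cell would not show, and low values may be background.

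No deposited value has a decimal mark, so it was restored. Strings starting with 1 were read as 10 or more and all others as below 10, which gave levels from 4.28 to 14.4; for no inhibitor probe set did the arrays of a genotype lie on both sides of 10. Names came from the platform annotation, with 21640 probe sets carrying 1 symbol, 1321 carrying several and 11799 without; symbols were updated through a RefSeq gene table of GRCm38.p6, used for names, chromosomes and neighbours. Promoter sequences are RefSeq's.

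All 21640 probe sets were fitted in R 4.3.3 (limma 3.58.1) on all 9 arrays, with a mean for each genotype and no filter on dim signal, and p-values were adjusted over all of them by Benjamini-Hochberg. The median residual SD was 0.0744, and the number of arrays limits the precision. For listed genes the brightest probe set was used. Up to 3 called members of a list with the smallest adjusted p in a comparison could be named, and not all of these were. Cdk4 was added after its values were seen, and Ptprc, Epcam, Pecam1 and Rb1 were also named outside this rule. The members and lists were chosen with earlier results of these data known. Alternatives were a filter on dim signal, 1 probe set per gene, median centring, quantile normalization once more, an intensity trend with robust variances, fits of 6 arrays, the replicate number as a block, a stricter threshold and leaving out each array. Proteins were not compared here.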

Additional observations from a re-analysis of the deposited data

How the results depend on the processing

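Of 354 alternative values of single inhibitor probe sets, 349 kept their direction and their side of the threshold. Much of this was fixed in advance. A stricter threshold, the dim filter, 1 probe set per gene and the intensity trend cannot change an estimated difference. Neither can the replicate block, the fits of 6 arrays or leaving out an array of the genotype not compared. Such alternatives could move a value only across the threshold. Without WT replicate 2 the Cdkn1b probe set 10542317 was called higher in KO than in WT (log2 difference 0.25, adjusted p = 0.0265), and without KO replicate 1 Cdkn2c was (0.22, adjusted p = 0.0379). At an adjusted p under 0.01 Cdkn2c was no longer called between CK and WT. Cdkn2d, never called, changed sign with repeated quantile normalization for KO minus WT (0.01) and without CK replicate 1 for CK minus WT (-0.001, adjusted p = 0.993). Over all alternatives the CK minus WT difference ranged from 3.12 to 3.26 for Cdkn2a, from 2.57 to 2.70 for Cdkn2b and from 0.77 to 0.88 for Cdkn1c, and the KO minus WT difference of Cdkn1c from -1.42 to -1.38. With all 7 inhibitor probe sets tested, 4 to 5 were called for KO versus WT, 5 to 6 for CK versus WT and 6 for CK versus KO; the 5 for CK versus WT came at an adjusted p under 0.01, where 7285 of all 21640 probe sets were called. With 1 probe set per gene, 4, 5 and 5 of 6 were called, against 6718, 8434 and 8274 of 19937.

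The labels do not say whether the replicate numbers pair the samples. Correlations of same-numbered deviations from the genotype means ran from -0.18 (CK and KO replicate 2) to 0.39 (WT and KO replicate 3). With the replicate block, 6999 probe sets were called between KO and WT (7227 without it), 8879 between CK and WT (9132) and 8695 between CK and KO (8870), and no inhibitor call changed.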
